A study of Mus musculus with 12 samples.

Results

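The let-7 and mir-98 family was followed through 12 small RNA libraries of mouse sperm and of TM4 cells, a mouse Sertoli cell line. Its members were taken by name: the miRBase hairpins mmu-let-7a-1, mmu-let-7b, mmu-let-7c-1, mmu-let-7d, mmu-let-7e, mmu-let-7f-1, mmu-let-7f-2, mmu-let-7g, mmu-let-7i and mmu-mir-98 (below without the species prefix mmu), which are 10 of the 1050 hairpins that had reads in any library. The rule itself used names and no measured value. All 10 passed the filter on low reads in every comparison. Levels are given as CPM, the reads of a hairpin per 1000000 miRNA reads of its library.

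let-7 miRNAs are cut from hairpin precursors by Drosha and Dicer, and the mature strand guides Argonaute proteins to messenger RNAs whose sites pair with its seed. The family is known for its rise as cells leave a stem or progenitor state, for targets such as Hmga2, Ras genes and Lin28 genes, and for the block that Lin28 proteins place on the maturation of its precursors. In the testis, let-7 miRNAs are known to accompany the differentiation of spermatogonia, and mature sperm carry them.

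The sperm came from C57BL/6J mice fed from 4 weeks of age for 7 weeks, by the labels with 16% of the energy as fat in the control diet (CD) and 69% in the high-fat diet (HFD), and the methods give a lower fat content for the HFD than the labels do. Each of the 3 CD and 3 HFD libraries pooled the epididymal sperm of 3 mice. The TM4 groups were non-treated cells (Ctrl), cells given 10 µM of the AMPK inhibitor Compound C for 12 h (CC) and cells that overexpressed angiogenin (Ang OE), a ribonuclease that cuts tRNAs, from a plasmid with the CMV promoter, with 2 libraries each. No empty-vector control is among the libraries, and whether the Ang OE cells were 1 clone is not given in the sources used here. Nothing in the labels says that the TM4 libraries of a group came from separate cultures, so their p-values measure only the spread between these libraries, which may be technical.

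Clean reads numbered 31710445 to 41532413 per sperm library and 51457711 to 64038150 per TM4 library, of which 11412945 to 14822686 and 27651384 to 35704399 were miRNA reads. All 8 listed testis germ cell miRNAs were present in sperm, with a summed level of 3162 to 8974 CPM, and 5 to 7 of them were detected in the TM4 groups, at 934 to 2045 CPM. Epithelial miRNAs (5 of 5 listed, 8946 to 14327 CPM) and red blood cell miRNAs (3 of 3, 13696 to 26658 CPM) were also present in the sperm pools, and in TM4 cells the same lists lay at 1.28 to 2.38 CPM and at 885 to 1433 CPM. Among the sperm libraries, HFD 1 stood apart from HFD 2 and HFD 3, where the chi-square of 166 hairpins divided by its degrees of freedom was 2685 and 3461, against 708 between HFD 2 and HFD 3. Comparisons that include HFD sperm are therefore given with and without HFD 1.

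The mature 5p strands of the family, from the RefSeq entries of the build GRCm38.p6, are shown because they carry the shared seed and the few bases by which the members differ. Capitals mark the seed, bases 2 to 8 from the 5′ end.
let-7a-5p: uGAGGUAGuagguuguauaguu
let-7b-5p: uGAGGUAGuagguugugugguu
let-7c-5p: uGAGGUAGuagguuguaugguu
let-7d-5p: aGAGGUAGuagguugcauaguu
let-7e-5p: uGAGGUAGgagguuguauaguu
let-7f-5p: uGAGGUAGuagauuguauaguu
let-7g-5p: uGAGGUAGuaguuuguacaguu
let-7i-5p: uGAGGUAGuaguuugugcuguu
miR-98-5p: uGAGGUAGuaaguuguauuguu

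All 9 strands are 22 nt long and share 1 seed, which 11 of the 1679 mature mouse names in the table carry. Counted from 1 at the 5′ end and read from let-7a to the other strand, let-7c differs by A19G, let-7e by U9G and let-7f by G12A. let-7b differs by A17G and A19G, let-7d by U1A and U16C, let-7g by G12U and U18C, and miR-98 by G11A and A19U. let-7i is the farthest from let-7a, with G12U, A17G, U18C and A19U. GC content ran from 31.8% in let-7f and miR-98 to 45.5% in let-7b.

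The hairpins lie at several places in the genome, given here in GRCm38.p6. On chromosome 13, minus strand, let-7a-1 (chr13:48538179-48538272), let-7f-1 (chr13:48537829-48537917) and let-7d (chr13:48536012-48536114) lie in an exon of the long non-coding RNA 6720427I07Rik, with 261 and 1714 bases between neighbours. let-7f-2 (chrX:151912346-151912428) and mir-98 (chrX:151913214-151913321) lie 785 bases apart in an intron of Huwe1, a ubiquitin ligase gene. let-7b (chr15:85707319-85707403) is in an exon of the long non-coding RNA Lncppara, 621 bases from let-7c-2. let-7c-1 (chr16:77599657-77599750) is in an intron of Mir99ahg, 656 bases from mir-99a, and let-7e (chr17:17830352-17830444) is in an intron of Spaca6, between mir-99b and mir-125a. let-7g (chr9:106178840-106178927) is in an intron of Wdr82. let-7i (chr10:122985640-122985724) lies on the minus strand in an exon of the long non-coding RNA Gm63655. Exons and introns were read by gene name from the GENCODE annotation of a later build.

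let-7f-1 and let-7f-2 give the same 5p strand, and a read that matched several hairpins was divided among them, so these 2 members are close to 1 measurement. The same holds for let-7a-1 and let-7c-1 with let-7a-2 and let-7c-2, further copies that the name list does not hold. A bulk library cannot tell fewer cells of a type from less RNA per cell, and this applies to every level below.

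Untreated sperm and untreated TM4 cells gave the family nearly the same share of their miRNA reads, made up of different members. The 10 hairpins took 2.62% ± 0.0813 (SD, n = 3) of the miRNA reads in CD sperm and 2.68% ± 0.0880 (n = 2) in Ctrl cells, a log2 ratio of -0.03 that moved to -0.27 per clean reads without rRNA and to 0.12 with every let-7 name counted. Of the single hairpins, let-7c-1 took the largest share of the family's reads in CD sperm, 28.7% ± 1.08, and let-7i in Ctrl cells, 19.4% ± 0.647. The Ctrl share of let-7i stood against 10.7% for let-7f-1 and 10.8% for let-7f-2, which divide the reads of a common strand. With the numbered copies added up, let-7c (8908 ± 116 CPM) and let-7f (5758 ± 303 CPM) were above let-7i (5201 ± 344 CPM) in Ctrl cells.

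In CD sperm the order of the mean levels was let-7c-1 (7521 ± 507 CPM), let-7f-2 (4474 ± 194 CPM), let-7f-1 (4119.7 ± 163 CPM), let-7b (2946 ± 241 CPM), let-7a-1 (2485 ± 220.1 CPM), let-7g (1716 ± 169 CPM), let-7i (1240.2 ± 112 CPM), let-7d (781 ± 73.0 CPM), let-7e (649.7 ± 35.2 CPM) and mir-98 (287 ± 2.58 CPM). The strands are equally long, but how well each sequence was captured was not measured and each level holds the reads of both arms, so the order is that of reads. No 2 neighbours in this order overlapped between their libraries. In Ctrl cells the order was let-7i (5201 ± 344 CPM), let-7c-1 (4417 ± 55.8 CPM), let-7f-2 (2883 ± 152 CPM), let-7f-1 (2875 ± 150.4 CPM), let-7b (2831 ± 123 CPM), let-7e (2339 ± 77.2 CPM), let-7a-1 (2109 ± 94.4 CPM), let-7d (1679 ± 20.2 CPM), let-7g (1636 ± 57.3 CPM) and mir-98 (794 ± 51.6 CPM). Here the libraries of let-7f-2, let-7f-1 and let-7b overlapped, as did those of let-7d and let-7g.

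**Figure D1:**
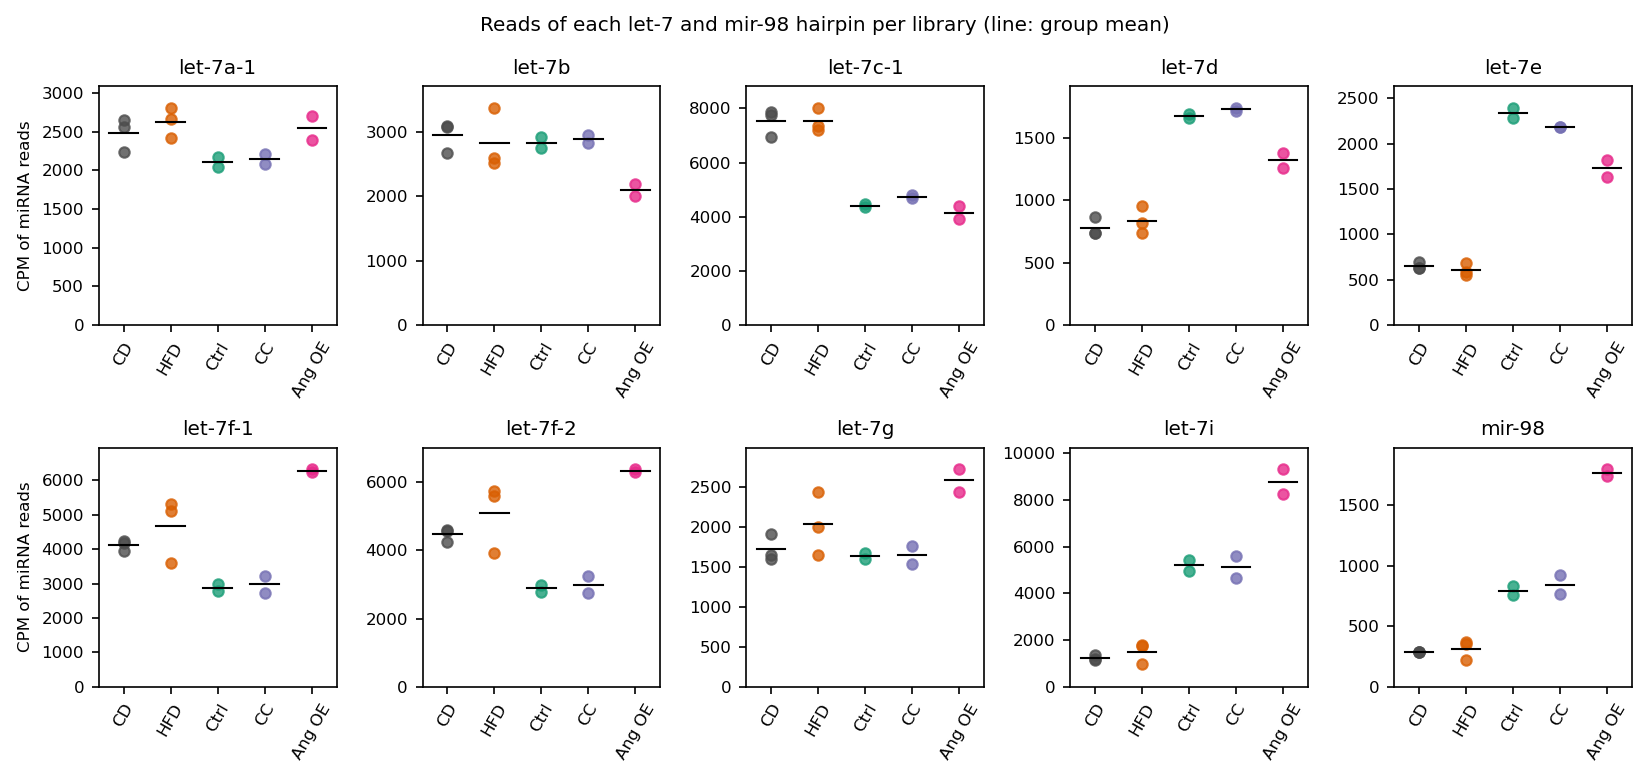
CPM of miRNA reads (y axes, linear, each from 0) of the 10 hairpins in the 5 groups, with a point per library and a line at the group mean. let-7d, let-7e, let-7i and mir-98 are lower in every sperm library than in every TM4 library, and let-7c-1 is higher; in Ang OE cells let-7f-1, let-7f-2, let-7i and mir-98 are above every Ctrl and CC library.

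On the CPM scale let-7i showed the widest gap between the sources. It had 1368, 1155 and 1198 CPM in CD sperm against 5445 and 4958 CPM in Ctrl cells, where its mean was 4.19 times as high. let-7e had 631, 690.2 and 628 CPM against 2394 and 2285 CPM, 3.60 times as high in Ctrl cells. mir-98 had 289, 284 and 289 CPM against 831 and 758 CPM, 2.76 times as high. Over all 12 libraries these 3 and let-7d, whose Ctrl mean was 2.15 times as high as the CD mean, stayed below their TM4 range in every sperm library.

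let-7c-1 went the other way, with 6939.9, 7876 and 7746 CPM in CD sperm against 4457 and 4378 CPM in Ctrl cells, a ratio of 1.70. The ratio was 1.55 for let-7f-2, 1.43 for let-7f-1 and 1.18 for let-7a-1. let-7b (ratio 1.04) and let-7g (ratio 1.05) overlapped between CD sperm and Ctrl cells.

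The fitted test between CD sperm and Ctrl cells depended on the scaling. edgeR's quasi-likelihood test with TMM scaling called 455 of 590 hairpins (77.1%) at a Benjamini-Hochberg adjusted p under 0.05, and 8 of the 10 members. On that scale let-7a-1, let-7b, let-7c-1, let-7f-1, let-7f-2 and let-7g were higher in sperm (40.7% of all hairpins were), and let-7e and let-7i were lower (36.4% were). The log2 fold change was 2.10 ± 0.13 (SE, adjusted p = 1e-06) for let-7c-1, -0.72 ± 0.17 (adjusted p = 0.00386) for let-7i and -0.51 ± 0.13 (adjusted p = 0.00554) for let-7e.
These sizes moved when either Ctrl library was left out. let-7c-1 was at 1.22 without Ctrl 1 and 1.23 without Ctrl 2, let-7i at -1.55 and -1.65, and let-7e at -1.37 and -1.41. mir-98 was then at -0.95 and -1.05, let-7d at -0.66 and -0.64, and let-7b at 0.45 without Ctrl 1. Such a fit holds 1 Ctrl library and takes its spread from the CD libraries alone, so its calls are not given.
On the TMM scale with all libraries the median over the members was 1.40 and that over all hairpins -0.13. No median was taken for the other fits, in which the members' values moved as given here.
With miRNA reads as the only scale, let-7c-1, let-7f-1 and let-7f-2 were still called higher and let-7e and let-7i lower, mir-98 was called lower (-1.47, adjusted p = 2.69e-05), let-7d turned to -1.10 and was called lower, and let-7a-1, let-7b and let-7g were no longer called. On that scale 32.9% of all hairpins were called higher in sperm and 58.0% lower. After a loess correction for the GC content of the mature strands, added after seeing the data, let-7a-1 (-1.14), let-7f-1 (-0.85), let-7f-2 (-0.70), let-7d (-1.44) and mir-98 (-2.49) were called lower in sperm, let-7e and let-7i stayed lower, and let-7c-1 (0.12), let-7b (0.11) and let-7g (0.12) were no longer called. That fit called 39.1% of 483 hairpins higher and 48.2% lower. Of the 10 members, let-7e and let-7i alone were thus called in 1 direction under TMM, miRNA reads as the scale and the GC correction. Beside these differences, the mesenchymal miRNAs (4 of 4 listed) summed to 7638 to 8850 CPM in CD sperm and 77537 to 78925 CPM in Ctrl cells, and the white blood cell miRNAs (4 of 4) to 592 to 685 and 1267 to 1270.4 CPM, while the smooth muscle list overlapped. The part of the cell type lists in the family's levels was not tested. Tissue, culture and library preparation cannot be told apart in this comparison.

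**Figure D2:**
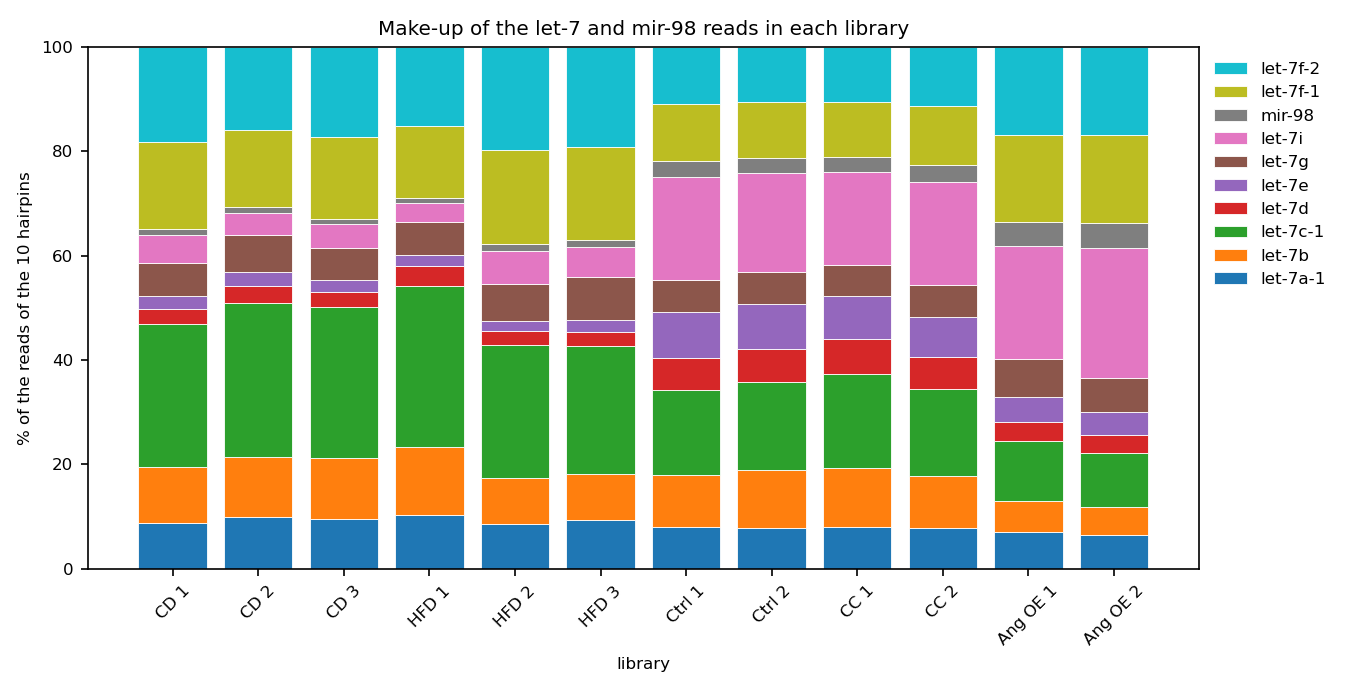
Percentage of the reads of the 10 hairpins (y axis) that each hairpin took in each of the 12 libraries (x axis). let-7c-1 takes between 24.6% and 31.0% in the 6 sperm libraries and between 10.5% and 18.0% in the 6 TM4 libraries, while let-7i takes between 3.76% and 6.28% and between 17.8% and 25.0%.

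The next comparison asked whether the HFD changed the family in sperm. No member was called, and 0 of 451 hairpins (0.0%) were called by edgeR, with 31 hairpins and no member at an unadjusted p under 0.05. DESeq2 called 8 hairpins and no member, and without HFD 1 it called 17 and no member, where edgeR called 0. The 10 hairpins together took 2.53%, 2.67% and 2.67% of the miRNA reads in CD sperm and 2.59%, 2.83% and 2.99% in HFD sperm, so the groups overlapped. The lowest of the HFD values was that of HFD 1, and the other 2 were above every CD library.

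let-7f-2, the most abundant member after let-7c-1, had 4579, 4251 and 4593 CPM in CD sperm and 3912, 5586 and 5753 CPM in HFD sperm. let-7i had 1368, 1155 and 1198 CPM against 974, 1777 and 1740.3 CPM. mir-98 had 289, 284 and 289 CPM against 223, 352 and 370.1 CPM. In all 3 the HFD 1 library lay below every CD library, and HFD 2 and HFD 3 lay above every CD library.

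let-7g had 1596, 1909 and 1643 CPM in CD sperm and 1643, 2001 and 2439 CPM in HFD sperm. let-7b followed the opposite order, with 3373 CPM in HFD 1 above every CD library (2668, 3072 and 3097 CPM), and 2512 and 2589.9 CPM in HFD 2 and HFD 3 below them. let-7c-1, let-7a-1, let-7d and let-7e overlapped between the diets as well.

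The log2 fold changes ran from -0.20 ± 0.16 (SE) for let-7e to 0.16 ± 0.27 for let-7i, with an adjusted p of 0.989 for each member in edgeR's quasi-likelihood test. The median was 0.01 over the members and -0.01 over all hairpins tested. Without HFD 1 the values for let-7f-1 (0.32 ± 0.16), let-7f-2 (0.32 ± 0.16), let-7g (0.36 ± 0.13), let-7i (0.48 ± 0.19) and mir-98 (0.31 ± 0.16) were larger, those for let-7a-1 (0.06 ± 0.13), let-7c-1 (-0.06 ± 0.13), let-7d (-0.01 ± 0.13) and let-7e (-0.05 ± 0.14) were near 0, let-7b was at -0.22 ± 0.14, and none was called (lowest adjusted p = 0.233). With 3 pools per diet, differences of the size of these SEs were not detectable. Beside these values, the summed level of the 4 listed white blood cell miRNAs was 592 to 685 CPM in CD and 787 to 1435 CPM in HFD sperm, highest in HFD 1, and that of red blood cells overlapped (14019 to 18350 and 13696 to 26658 CPM). Lists of 3 other cell types moved across the libraries as let-7f-2, let-7i and mir-98 did, with HFD 1 below and HFD 2 and HFD 3 above every CD library. Smooth muscle miRNAs (2 of 2 listed) summed to 33595 to 50954 CPM in CD sperm and to 30612, 52005 and 56120 CPM in HFD 1, HFD 2 and HFD 3. Mesenchymal miRNAs (4 of 4) summed to 7638 to 8850 CPM and to 6642, 10909 and 11393 CPM. Epithelial miRNAs summed to 9281 to 10573 CPM and to 8946, 11272 and 14327 CPM. The part of these lists in the family's levels was not tested.

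The family was then compared between CC-treated and Ctrl cells, where AMPK, the energy-sensing kinase, was inhibited. No member was called among the 22 of 533 hairpins (4.13%) that edgeR called, 2.25% as higher and 1.88% as lower, and no member had an unadjusted p under 0.05, which 94 hairpins had. The family's share was 2.74% and 2.61% of the miRNA reads in Ctrl cells and 2.61% and 2.85% in CC cells.

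let-7i had 5445 and 4958 CPM in Ctrl and 4642 and 5617 CPM in CC cells. let-7f-2 had 2991 and 2775 CPM against 2747 and 3234 CPM. mir-98 had 831 and 758 CPM against 763 and 923 CPM. For let-7i and let-7f-2 the CC libraries lay on either side of the Ctrl libraries, and for mir-98 the groups overlapped.

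let-7c-1 and let-7d were higher in both CC libraries than in both Ctrl libraries, with CPM ratios of 1.07 and 1.03, and let-7e was lower, with a ratio of 0.931. Their log2 fold changes were 0.11 ± 0.10, 0.05 ± 0.10 and -0.10 ± 0.10, and the lowest adjusted p among the members was 0.644 (edgeR). The share of all hairpins whose libraries lay apart between groups was not counted, in this or any other comparison. The median was 0.04 over the members and -0.03 over all hairpins tested.

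Overexpression of angiogenin went with a larger share of the family and with another make-up. The 10 hairpins took 3.79% and 3.73% of the miRNA reads in Ang OE cells against 2.74% and 2.61% in Ctrl cells, a log2 ratio of 0.49. Of the 10 members, 6 rose (let-7a-1, let-7f-1, let-7f-2, let-7g, let-7i and mir-98) and none was called lower. Over all 533 hairpins 204 (38.3%) were called by edgeR, 24.2% as higher and 14.1% as lower, and with miRNA reads as the only scale 15.2% as higher and 26.1% as lower. On the TMM scale the median log2 fold change was 0.74 over the members and 0.06 over all hairpins tested. The members' values were lower with miRNA reads as the only scale and after GC correction (below), for which no median was taken.

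let-7f-2 rose from 2991 and 2775 CPM in Ctrl to 6381 and 6301 CPM in Ang OE cells, a log2 fold change of 1.41 ± 0.10 (SE, adjusted p = 5.23e-08, edgeR with TMM). let-7f-1 gave practically the same values, 2982 and 2769 CPM against 6325 and 6244 CPM (1.40 ± 0.10, adjusted p = 5.23e-08). mir-98, the neighbour of let-7f-2 in Huwe1, rose from 831 and 758 CPM to 1737 and 1796 CPM (1.43 ± 0.11, adjusted p = 6.5e-08). All 3 had CPM means 2.19 to 2.22 times as high in Ang OE cells, and their libraries lay far apart.

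let-7i rose from 5445 and 4958 CPM to 8247 and 9316 CPM (1.03 ± 0.11, adjusted p = 2.16e-06). let-7g rose from 1676 and 1595 CPM to 2718 and 2439 CPM (0.93 ± 0.10, adjusted p = 2.16e-06). let-7a-1 rose least, from 2175 and 2042 CPM to 2699.7 and 2388 CPM (0.54 ± 0.10, adjusted p = 0.000312). The call of let-7a-1 was lost with miRNA reads as the only scale (0.27, adjusted p = 0.0521).

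The remaining 4 members were not called. let-7b had 2744 and 2918 CPM in Ctrl and 2186 and 2003 CPM in Ang OE cells (-0.16 ± 0.10, adjusted p = 0.204). let-7e had 2394 and 2285 CPM against 1823 and 1634 CPM (-0.16 ± 0.10, adjusted p = 0.193). let-7d had 1694 and 1665 CPM against 1383 and 1262 CPM (-0.07 ± 0.10, adjusted p = 0.586). On the CPM scale the 2 groups did not overlap for these 3, with ratios of 0.740, 0.739 and 0.788, and the smaller fitted changes follow from TMM factors of 1.08 and 1.05 for the Ctrl and 0.900 and 0.864 for the Ang OE libraries. With miRNA reads as the only scale, let-7b (-0.43, adjusted p = 0.00245), let-7d (-0.34, adjusted p = 0.0126) and let-7e (-0.44, adjusted p = 0.00245) were called lower. let-7c-1 had 4457 and 4378 CPM against 4397 and 3902 CPM, which overlap (0.18 ± 0.10, adjusted p = 0.141).

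**Figure D3:**
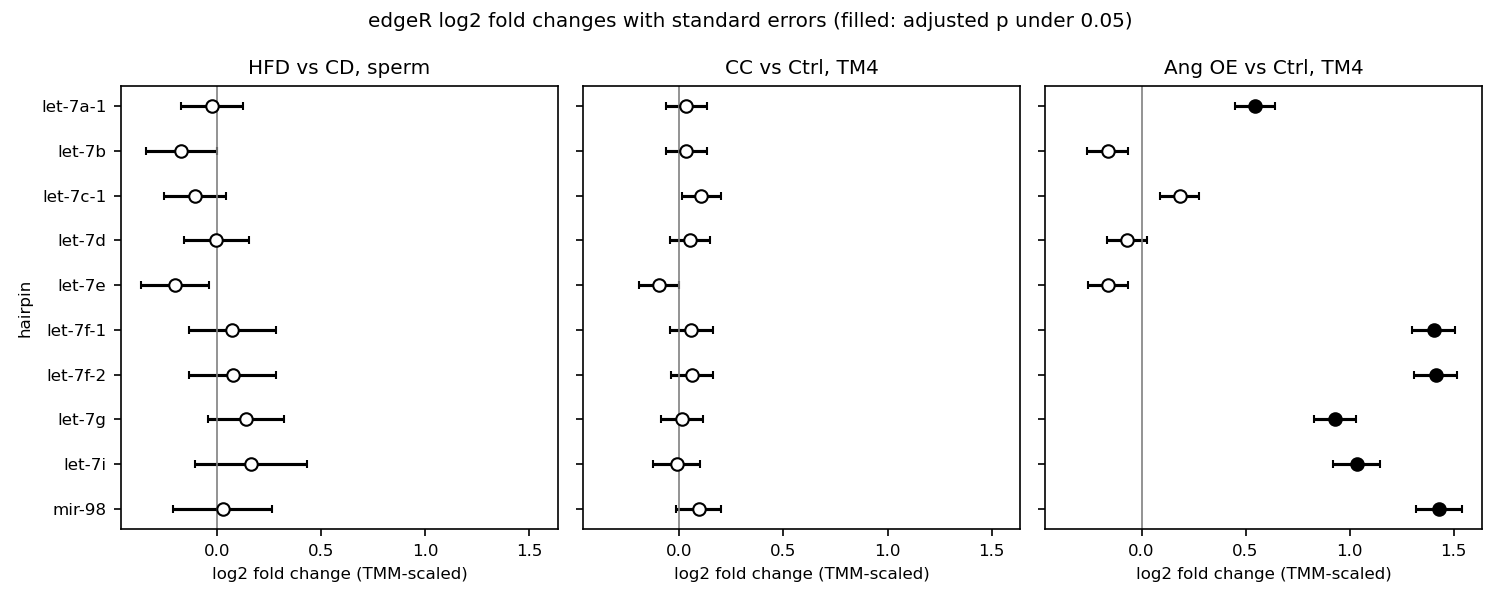
edgeR log2 fold changes (x axes, TMM scale) with standard errors of the 10 hairpins (y axis) in the 3 comparisons with a treatment or diet. Filled points have an adjusted p under 0.05, and only the Ang OE panel has any, from 0.54 for let-7a-1 to 1.43 for mir-98.

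Set beside the sequences above, let-7f, let-7g and let-7i carry a substitution at base 12 (G12A or G12U) and miR-98 carries G11A, and the hairpins of these 4 strands are 5 of the 6 that rose. The strands of let-7a, let-7b, let-7c, let-7d and let-7e keep GG at bases 11 and 12. This grouping was chosen after the values were seen and carries no test. The 5 hairpins without GG took 50.8% and 49.2% of the family's reads in Ctrl cells, 47.7% and 51.8% in CC cells and 67.0% and 70.0% in Ang OE cells. Their summed level went from 13389 ± 756 CPM in Ctrl to 25752 ± 486 CPM in Ang OE cells, and that of the 5 hairpins with GG went from 13376 ± 125 to 11839 ± 919.7 CPM. In sperm the share without GG was 47.7%, 43.2% and 44.6% on the CD and 39.9%, 52.4% and 52.2% on the HFD, the lowest in HFD 1. The split counts both copies of let-7f but not let-7a-2 and let-7c-2, copies with GG outside the name list. let-7a-2 had 2055 ± 91.8 CPM in Ctrl and 2469 ± 216 CPM in Ang OE cells, and let-7c-2 had 4490 ± 60.4 and 4232 ± 356 CPM. With these copies counted, every share without GG would be lower.

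The GC content of the hairpins, again the mean over their listed mature arms, moved with the Ang OE comparison. Among the 428 of 533 tested hairpins with a strand in the RefSeq table, the median log2 fold change was 0.35 in the 143 of lowest GC content, -0.12 in the 142 in the middle and -0.34 in the 143 of highest GC content. After a loess correction of each library for GC content, let-7i (1.01), let-7g (0.81), let-7f-1 (0.78), let-7f-2 (0.72) and mir-98 (0.57) were still called higher, the highest adjusted p among them being 0.00115. let-7a-1 was then at -0.08 and no longer called, and let-7b (-0.28), let-7d (-0.28) and let-7e (-0.29) were called lower. The corrected fit tested these 428 hairpins and called 15.2% higher and 14.0% lower. Lists of other cell types moved as well: the 4 listed mesenchymal miRNAs summed to 77537 to 78925 CPM in Ctrl and 119289 to 128468 CPM in Ang OE cells, the 2 smooth muscle miRNAs to 49714 to 55567 and 94556 to 129039 CPM, and the testis germ cell miRNAs, of which mir-878, mir-880 and mir-881 were at 0 in Ctrl, to 1017 to 1050.3 and 1932 to 2045 CPM. The red blood cell miRNAs went the other way, from 1374 to 1433 CPM in Ctrl to 885 to 894 CPM in Ang OE cells, and the white blood cell and epithelial lists overlapped. Within the mesenchymal list mir-21a was called higher (1.09 ± 0.10, adjusted p = 3.86e-07, edgeR). From the same list mir-214 was called lower (-0.34 ± 0.11, adjusted p = 0.0174), and mir-199a-1 and mir-199a-2 (0.13 each) were not called. The part of these lists in the family's values was not tested.

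Ang OE cells were also set against CC cells, a comparison added after the data were seen that shares the Ang OE libraries with the one above. The same 6 members were called higher and none lower, where edgeR called 221 of 533 hairpins (41.5%), 26.3% as higher and 15.2% as lower. let-7f-2 (1.35 ± 0.10), let-7f-1 (1.35 ± 0.10), mir-98 (1.34 ± 0.11), let-7i (1.05 ± 0.11) and let-7g (0.92 ± 0.10) had the larger log2 fold changes, and the highest adjusted p among the 6 was 0.000469, for let-7a-1. let-7a-1 lost its call with miRNA reads as the only scale (0.24, adjusted p = 0.0784) and was at -0.16 after GC correction. let-7b was called lower on both (-0.46 and -0.33), as was let-7d (-0.39 and -0.35), and let-7e was called lower with miRNA reads as the scale (-0.33, adjusted p = 0.0159). Over all hairpins 15.6% were called higher and 26.8% lower with miRNA reads as the scale, and 14.5% and 15.9% of 428 after GC correction. Mesenchymal miRNAs summed to 76795 to 84331 CPM in CC and 119289 to 128468 CPM in Ang OE cells. The smooth muscle list went from 51422 to 73465 to 94556 to 129039 CPM, and the germ cell list from 934 to 1025 to 1932 to 2045 CPM. Red blood cell miRNAs (942 to 982 and 885 to 894 CPM) and white blood cell miRNAs (1416 to 1489 and 1210 to 1400 CPM) were lower in Ang OE cells. The part of these lists was not tested.

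The difference in reads between numbered copies was a further readout. It is a net value, in which reads given to 1 copy alone cancel those given to the other alone. let-7f-1 and let-7f-2 share their 5p strand but not their 3p strand, which is shown because reads of it can be given to 1 copy alone. Capitals mark bases 2 to 8.
let-7f-1-3p: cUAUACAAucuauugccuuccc
let-7f-2-3p: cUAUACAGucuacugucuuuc

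Read from let-7f-1-3p to let-7f-2-3p, the strands differ by A8G, U13C, C16U and C20U, and the second is 1 base shorter (21 against 22 nt). let-7f-2 exceeded let-7f-1 by 345, 318 and 400.2 CPM in CD sperm, by 321, 464 and 444 CPM in HFD sperm, by 8.91 and 6.11 CPM in Ctrl, by 7.65 and 10.9 CPM in CC and by 56.0 and 57.5 CPM in Ang OE cells. Every sperm library was above every TM4 library, with means of 382 ± 63.4 CPM (n = 6) and 24.5 ± 25.0 CPM (n = 6). The excess made up 7.49% to 8.71% of the let-7f-2 reads in sperm and 0.220% to 0.913% in TM4 cells. An exact 2-sided permutation test of sperm against TM4 gave p = 0.00217, the smallest that 924 splits allow, and 0.00325 after adjustment over the 3 pairs of copies. All tests of copies took the libraries of a source as replicates across diets or treatments, so their p-values do not rest on independent samples of 1 condition. Tissue, culture and library preparation cannot be told apart here either. Within TM4, both Ang OE libraries were above all Ctrl and CC libraries, and 2 libraries per group allow no exact test under 0.05. The files do not hold read positions, so whether these reads come from the 3p strand or another stretch of the hairpin is not known.

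The pair let-7a-1 and let-7a-2 went the other way. let-7a-1 exceeded let-7a-2 by 14.3 ± 2.98 CPM (n = 6, from 10.2 to 19.3) in sperm and by 62.1 ± 10.9 CPM (n = 6, from 51.6 to 78.3) in TM4 cells (exact permutation p = 0.00217, adjusted 0.00325). For let-7c-2 over let-7c-1 the excess was 63.3 ± 12.7 CPM in sperm and 75.5 ± 7.72 CPM in TM4 cells, and the groups overlapped (exact permutation p = 0.0801 for n = 6 each). As a share of the let-7c-2 reads it was 0.723% to 0.998% in sperm and 1.37% to 1.97% in TM4 cells, which did not overlap. Without HFD 1, the excess in sperm was 394 ± 62.4 CPM for let-7f, 13.2 ± 1.87 CPM for let-7a and 59.8 ± 10.3 CPM for let-7c, and the exact permutation tests of 5 against 6 libraries gave adjusted p = 0.00325, 0.00325 and 0.0281, so the let-7c difference in CPM passed 0.05 when this library was left out. The 3p strands of let-7c-2 and let-7a-1 are identical, so their reads were divided between these 2 hairpins.

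**Figure D4:**
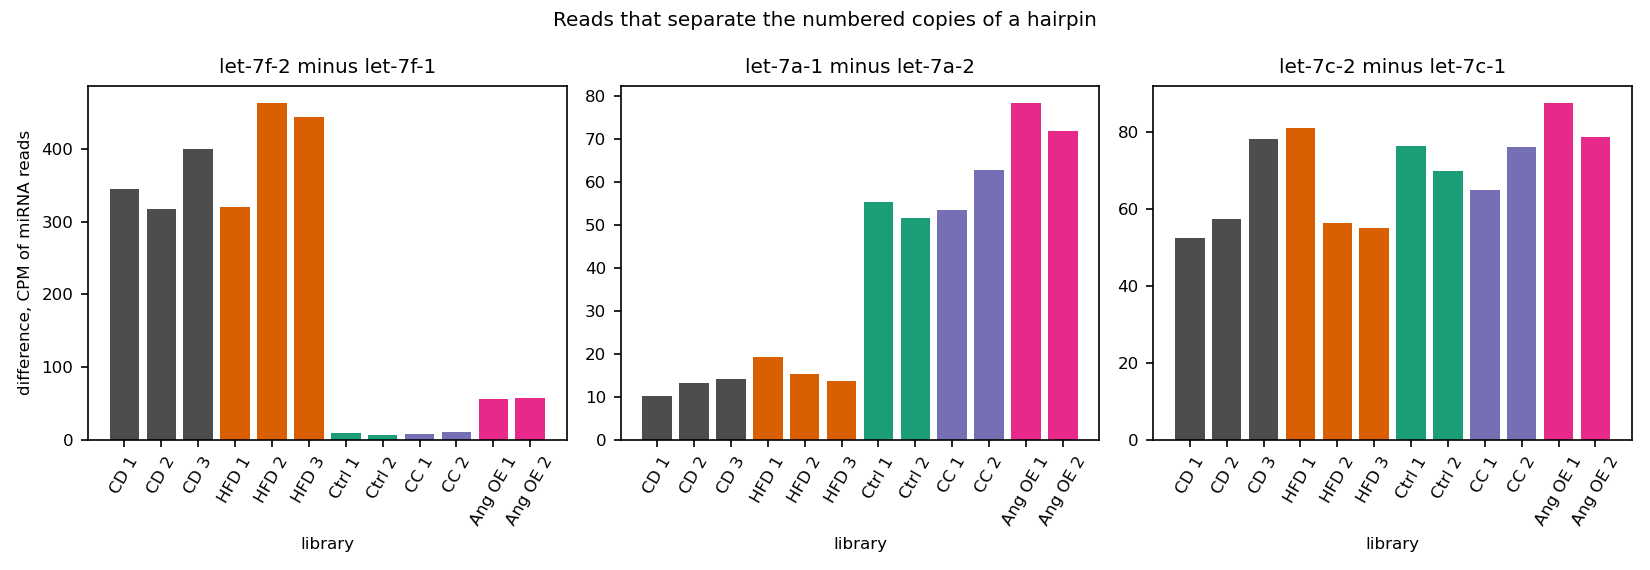
Net difference in CPM of miRNA reads (y axes, linear from 0) between the numbered copies of let-7f, let-7a and let-7c in each library (x axis). The let-7f-2 excess is between 318 and 464 CPM in the sperm libraries and between 6.11 and 57.5 CPM in the TM4 libraries, and the let-7a-1 excess is larger in TM4 cells.

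The hairpins that share a cluster with a let-7 gene, of the mir-99, mir-100 and mir-125 families, and mir-202, whose seed is 1 base from that of let-7, were followed as a listed group of 7. In Ang OE cells 5 of the 6 tested fell, where 14.1% of all hairpins did, and none rose, where 24.2% did. Their median log2 fold change was -0.55, against 0.06 over all hairpins. mir-125b-2, which lies downstream of let-7c-1, had 4136 and 4655 CPM in Ctrl and 2083 and 1727 CPM in Ang OE cells (-0.94 ± 0.12, adjusted p = 8.37e-06). mir-99b, 94 bases from let-7e and the most abundant of the group, had 117577 and 123398 CPM against 71939 and 62020.1 CPM (-0.57 ± 0.10, adjusted p = 0.00024). mir-100 (-0.70), mir-125b-1 (-0.52) and mir-125a (-0.47) fell as well, and mir-99a was at -0.00 (adjusted p = 0.996). The call of mir-99b was lost after GC correction (-0.22, adjusted p = 0.115).

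On the TMM scale let-7e, which lies between mir-99b and mir-125a, was not called, and with miRNA reads as the scale or after GC correction it was called lower (-0.44 and -0.29). The difference of let-7e from its neighbours was not tested, nor was that of let-7c-1 and mir-99a from mir-125b-2. In CC cells none of the 6 was called (4.13% of all hairpins were). With the replicate number as a block mir-100 was called lower, and with no filter mir-99a was called higher (0.41, adjusted p = 0.0390, edgeR). Without Ctrl 1, which leaves 1 Ctrl library, mir-100 was at -0.51. On the HFD none of the 7 was called (0.0% of all hairpins), with or without HFD 1. Between CD sperm and Ctrl cells 4 were called higher in sperm and 3 lower on the TMM scale (40.7% and 36.4% of all hairpins). With miRNA reads as the scale 2 were called higher and 5 lower (32.9% and 58.0% of all hairpins), since mir-100 (0.81 with TMM) turned to -0.53 and mir-125a (0.44 with TMM) to -0.89. Their CPM means were 5291 ± 798 in CD sperm against 7651 ± 982 in Ctrl cells for mir-100 and 2814 ± 204 against 5230 ± 153 for mir-125a.
mir-202, known from the gonads, had 6.94, 59.8 and 19.6 CPM in CD sperm, 11.3, 7.75 and 4.86 CPM in HFD sperm and at most 0.178 CPM in TM4 cells. The log2 fold change of mir-202 on the HFD was -1.87 ± 0.63 and was not called (adjusted p = 0.401, edgeR). It was -2.09 ± 0.75 without HFD 1 and -0.92 ± 0.45 without CD 2, the highest CD library, and was not called in either fit.

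Likeness to the family was measured as the SD over the 12 libraries of the log2 ratio of a hairpin to the summed family, among 138 hairpins with a mean of at least 100 CPM, where a small SD means that the ratio stayed nearly the same. The lowest SDs outside the family were those of mir-26a-2 and mir-26a-1 (0.217 each, copies that share reads), mir-30b (0.265), mir-26b (0.308) and mir-195a (0.340), and the median of the ranked hairpins was 1.36. mir-26b and mir-26a-2 were called higher in Ang OE than in Ctrl cells (1.05 ± 0.10 and 0.54 ± 0.10, adjusted p = 8.93e-07 and 0.000432), and mir-30b (0.14) and mir-195a (-0.17) were not called. Within the family, where each hairpin was set against the sum of the other members, the SD was lowest for let-7g (0.149) and highest for let-7i (1.23). Without HFD 1 the same 5 hairpins led, in the same order, with SDs of 0.218 to 0.353 against a median of 1.34, and the SD was 0.155 for let-7g and 1.18 for let-7i, again the lowest and the highest of the family.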

How the data were processed

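The authors trimmed reads with Trimmomatic 0.40, checked them with FastQC 0.12.0 and annotated them with SPORTS1.1, which allows a mismatch. Per the labels the build is mm10. The deposited values are estimated counts: the authors' run divided a read that matched several hairpins among them, with no scaling for library size. Members and lists were chosen with earlier results of these data known.

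Per hairpin, genome-matched and unmatched reads were summed (Python 3.11.15; scipy 1.17.1, numpy 2.4.6 and pandas 2.3.3). Counts were rounded and tested by the quasi-likelihood test of edgeR 4.0.16 in R 4.3.3, with TMM over the hairpins that reached 10 reads in 3 or more sperm libraries, or in 2 or more for TM4 and for sperm against TM4. The 6 TM4 libraries shared 1 model. p-values were adjusted by Benjamini-Hochberg over all hairpins tested and called under 0.05. Copy differences were compared by exact permutation tests. The text names every let-7 hairpin and mir-98, cluster partners and mir-202, and the 5 hairpins most like the family. Alternatives included DESeq2 1.42.0, other library sizes, no filter, added copies, each library left out, the replicate block and ComBat-seq from sva 3.50.0 by replicate number, since the authors' batches are not named. The GC correction (loess, span 0.75), fits of the partners under these settings, DESeq2, copy tests and likeness without HFD 1 and the comparison of Ang OE with CC were added after seeing the data. Scripts were tested on simulated data. Counts carry no molecular identifiers. Figures were drawn with matplotlib 3.10.9.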

Additional observations from a re-analysis of the deposited data

How the results depend on the processing

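The 6 calls of members in Ang OE against Ctrl cells kept their direction and their side of the threshold under the alternatives run with every library of the 2 groups, except that let-7a-1 lost its call with miRNA reads as the only scale and was at -0.077 after GC correction. With 1 library left out, the log2 fold changes of these 6 lay between 0.41 (lowest for let-7a-1) and 1.48 (highest for mir-98). Such a fit leaves 1 library in a group, so its calls are not given. let-7c-1, which was not called, turned to -0.090 with miRNA reads as the only scale and to -0.12 after GC correction, and let-7d to 0.024 with numbered copies added. Of 100 member values under alternatives other than leaving out a library, 87 kept their sign and call, 4 changed sign, 1 lost its call and 8 gained a call. The gained calls include those of let-7b, let-7d and let-7e named above. GC correction, which tests only hairpins with a known strand, called 125 of 428 (29.2%). In the comparison of Ang OE with CC, GC correction called 130 of 428 hairpins (30.4%) and gave -0.16 for let-7a-1, and let-7c-1 moved to -0.19 with miRNA reads as scale, -0.068 with clean reads without rRNA, -0.020 with DESeq2 and -0.24 after GC correction, with a range of -0.062 to 0.11 when a library was left out. let-7e was at 0.0027 there with copies added. Of 100 such member values in that comparison, 85 kept their sign and call, 6 changed sign, 1 lost its call and 8 gained a call. For the whole family, Ang OE exceeded Ctrl by a log2 ratio of 0.62 per clean reads without rRNA and 0.41 with all let-7 names.

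In HFD against CD, where no member was called under any alternative, the small values changed sign often. let-7a-1 was at 0.082 with miRNA reads as scale, 0.17 with clean reads and 0.028 with copies added. let-7b was at 0.021 with clean reads, and let-7c-1 at 0.0022 and 0.087 on these 2 scales. let-7d was at 0.10 and 0.18 on them, 0.014 with DESeq2, 0.015 with no filter, 0.0013 with genome-matched reads, 0.051 with copies added and 0.054 after GC correction, and mir-98 was at -0.077 after GC correction. With a library left out the ranges were -0.064 to 0.087 for let-7a-1, -0.16 to 0.0035 for let-7c-1, -0.015 to 0.086 for let-7d, -0.063 to 0.32 for let-7f-1 and let-7f-2, -0.047 to 0.48 for let-7i and -0.13 to 0.31 for mir-98. DESeq2 called 8 hairpins, and 17 without HFD 1, a fit added after seeing the data.

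In CC against Ctrl no member was called under any alternative. let-7i was at 0.015 with DESeq2, 0.032 with no filter, 0.012 with copies added and 0.0071 after GC correction. With a library left out the ranges were -0.00036 to 0.060 for let-7a-1, -0.029 to 0.098 for let-7b, -0.054 to 0.14 for let-7f-1 and let-7f-2, -0.077 to 0.073 for let-7g, -0.15 to 0.085 for let-7i and -0.042 to 0.19 for mir-98. The count of hairpins called was 39 with ComBat-seq and 13 of 428 after GC correction, and with a library left out from 0 (without CC 1 or without CC 2) to 26.

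Between CD sperm and Ctrl cells the scale decided several directions. let-7d was at -1.10 with miRNA reads, -1.34 with clean reads, -0.42 with no filter, -0.029 with copies added, -1.44 after GC correction and -0.17 in a model of 12 libraries, with a range of -0.66 to 0.22 when a library was left out. The same ranges were 1.22 to 2.04 for let-7c-1, -1.65 to -0.74 for let-7i and -1.41 to -0.53 for let-7e. With clean reads let-7a-1 was at -0.0013, let-7b at -0.18 and let-7g at -0.17. mir-98 was at 0.029 with DESeq2. GC correction gave -1.14 for let-7a-1, -0.85 for let-7f-1 and -0.70 for let-7f-2. For the cluster partners and mir-202 the split of calls, 4 higher and 3 lower, became 2 and 5 with miRNA reads, where that of all hairpins went from 40.7% and 36.4% to 32.9% and 58.0%. The cause of these shifts was not tested.

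The replicate numbers did not pair the sperm libraries: same-numbered libraries had deviations that correlated at -0.198, -0.418 and 0.118. With the replicate block the CC comparison called 35 hairpins, mir-98 on the HFD was at -0.010, and no call of a member changed, while mir-100 was called lower in CC cells (-0.36). A crossed replicate block for Ctrl and Ang OE, added because same-numbered libraries correlated at -0.203, called 229 hairpins. A test of the share of reads without a genome match could not be run, since mir-714 alone had such reads (10 to 65 per library) and the members had 0. Between replicates the chi-square over its degrees of freedom was 450.1 to 3461, so counting noise alone does not describe their spread. What sets that spread was not tested.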

Other observations

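The files list further let-7 names. let-7a-2 had 1990.3 to 2797 CPM and let-7c-2 had 3980.4 to 8107 CPM over the 12 libraries, close to the copies described above. let-7j had 1 to 53 reads per library, or 0.0675 to 0.526 CPM in sperm and 0.722 to 1.57 CPM in TM4 cells, with the higher values in Ang OE (1.36 and 1.57 CPM against 0.959 and 0.952 CPM in Ctrl), and it was not called there (adjusted p = 0.055, edgeR). let-7k, whose mature strand carries the seed of the family, had 3.5 to 27 reads per library (0.307 to 1.05 CPM).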
